A study of Homo sapiens with 24 samples.

Results

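The 78 mRNAs described here carry the symbols of mitochondrial ribosomal proteins. They are the rows whose Ensembl gene ID mapped to a symbol made of MRPL or MRPS and a number, without pseudogenes, and they are 78 of the 61853 rows in the deposited table. Of them, 49 are named MRPL, for the large subunit, and 29 are named MRPS, for the small subunit. The 29 include MRPS36, named KGD4 in RefSeq and a subunit of the oxoglutarate dehydrogenase complex. It was kept in all MRPS counts, medians and ratios. All 78 passed the filter on low counts.

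The libraries were made from the embryonic kidney line 293T, which is human, and the molecule is labelled as cytoplasmic RNA. In every group DIS3, a catalytic subunit of the nuclear RNA exosome, had been knocked down with the hairpin DIS3-sh2. The cells were then rescued with the mutant DIS3 D146N or with wild-type DIS3 (WT), and a sucrose density gradient gave the RNA of fractions 3, 4, 7 and 8. This gave 8 groups (D146N fractions 3, 4, 7 and 8, and WT fractions 3, 4, 7 and 8) with 3 biological replicates each, 24 libraries in all, sequenced after ribosomal RNA depletion. D146N lies in the endonuclease domain of DIS3. Which end of the gradient was counted first is not given in the labels.

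The mitochondrial ribosome makes the few membrane proteins encoded by mitochondrial DNA, all of them parts of the respiratory chain and ATP synthase. Its 2 ribosomal RNAs come from mitochondrial DNA, whereas every one of its proteins is encoded in the nucleus, translated in the cytosol and imported. Some of these proteins descend from bacterial ribosomal proteins and others were added in the mitochondrial lineage.

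Library totals ran from 21.2 to 32.99 M counts (M, 1000000). The rescued gene DIS3 was detected in all libraries, at 7.79 to 9.63 CPM (counts-per-million of the library total) in D146N fractions 3 and 4, 86.7 to 115 CPM in D146N fractions 7 and 8, 91.4 to 112 CPM in WT fractions 3 and 4 and 4.54 to 6.28 CPM in WT fractions 7 and 8. The counts do not tell endogenous from rescue transcripts. All 7 markers listed for 293T were detected, 4 of them at a mean of at least 1 CPM, and so were all 7 hepatocyte markers, 6 of them at such a mean. The summed hepatocyte markers were 515 to 566 CPM in D146N fractions 7 and 8, against 26.8 to 32.4 CPM in D146N fractions 3 and 4, and 30.6 to 123.5 CPM in WT fractions 7 and 8, against 613 to 662 CPM in WT fractions 3 and 4. The summed 293T markers were 273 to 298 CPM in D146N fractions 7 and 8, against 25.5 to 29.4 CPM in D146N fractions 3 and 4, and 21.7 to 29.5 CPM in WT fractions 7 and 8, against 273 to 302 CPM in WT fractions 3 and 4. Hepatocyte genes such as ALB, which encodes serum albumin, are not typical of a kidney line, the labels name 293T alone, and the part of these transcripts in the results was not tested. WT fraction 8 replicate 3 stood apart from the other WT libraries of fractions 7 and 8. Its summed hepatocyte markers were 123.5 CPM, the highest of those 6 libraries, and 0.117% of its counts lay in the 78 members, against 0.0840% to 0.0898% in the other 5.

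Fold changes below are from edgeR's quasi-likelihood test, adjusted by Benjamini-Hochberg over all 18907 genes tested, and the threshold for a call was an adjusted p of 0.05. They are on the log2 scale and are relative to the typical gene, after TMM scaling. On library totals the median of all genes in the contrast of fractions 7 and 8 over 3 and 4 was 3.00 in D146N and -2.83 in WT, against 0.10 and -0.18 after TMM. A library takes a fixed number of reads, so less RNA of 1 kind and more RNA of another cannot be told apart here. CPM values are counts on library totals and may order the fractions differently from the TMM fold changes.

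Promoters were compared for the 70 of the 78 members with an entry in the RefSeq promoter table (GRCh38.p14), using the 250 bases before the start site. The motif CCGGAAG, a core bound by ETS factors such as GABP (NRF-2) and searched on both strands, lay in 23 of the 70 (32.9%), namely 14 of 42 MRPL (33.3%) and 9 of 28 MRPS (32.1%). It was found in 8.82% of all 27305 promoters of the same length and in 11.8% of the 15843 protein-coding ones. The palindromic motif of nuclear respiratory factor NRF1 was found in 1 of 70 (1.43%), against 1.13% of all promoters. A looser form with its central pair of bases free was found in 9 of 70 (12.9%), against 7.58% of all and 10.5% of protein-coding promoters. The 2 forms overlap, since the looser one contains the strict one.

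The stretches below are 50 bases each, cut around the motif from those 250 bases, for 7 members described further on, with the motif in capitals. The first base of the motif (for MRPL51, of the match nearer the gene) lay 8 bases before the start site in MRPL33, 72 in MRPL53, 104 in MRPL51, 32 in MRPL3, 11 in MRPS21, 31 in MRPS18A and 222 in MRPS18C. MRPL33 and MRPL53 were among the members with the highest WT fold change, MRPL51, MRPL3 and MRPS21 among those with the most counts, and MRPS18A and MRPS18C are paralogs. Only members with a match could be printed. MRPS7, MRPL36 and MRPL14, with higher WT fold changes than MRPL53, and MRPL37, with the most counts, had no match. CTTCCGG is the same motif read on the other strand. They lie at chr2:27771669-27771718, chr2:74472724-74472773, chr12:6493338-6493387, chr3:131502975-131503024, chr1:150293811-150293860, chr6:43687794-43687843 and chr4:83455815-83455864, in the order printed.
MRPL33: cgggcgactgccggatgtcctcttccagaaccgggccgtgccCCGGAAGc
MRPL53: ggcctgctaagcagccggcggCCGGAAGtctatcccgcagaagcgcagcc
MRPL51: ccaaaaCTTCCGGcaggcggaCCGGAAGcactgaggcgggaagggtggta
MRPL3: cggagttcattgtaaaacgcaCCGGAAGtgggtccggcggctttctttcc
MRPS21: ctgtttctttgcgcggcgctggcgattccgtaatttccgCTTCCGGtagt
MRPS18A: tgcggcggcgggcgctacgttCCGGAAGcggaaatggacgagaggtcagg
MRPS18C: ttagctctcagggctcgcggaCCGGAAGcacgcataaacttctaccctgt
The matches are a description of these letters only. Members with the motif had a median fraction contrast of -1.34 in D146N and 1.66 in WT (23 members), against -1.04 and 1.48 in members with a promoter entry but no motif (47 members).

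As a share of all counts, the 78 members were more abundant in D146N fractions 7 and 8 than in D146N fractions 3 and 4, and less abundant in WT fractions 7 and 8 than in WT fractions 3 and 4. The summed MRPL level ran from 1145 to 1206 CPM in D146N fractions 7 and 8, against 437 to 454 CPM in D146N fractions 3 and 4. In WT it ran from 538 to 768 CPM in fractions 7 and 8, against 918 to 983 CPM in fractions 3 and 4. The summed MRPS level followed the same order, with 685 to 723 CPM against 227 to 246 CPM in D146N and 302 to 405 CPM against 563 to 596 CPM in WT. Within each genotype the ranges of the ends did not overlap. The upper WT values of fractions 7 and 8 belong to fraction 8 replicate 3.

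**Figure D1:**
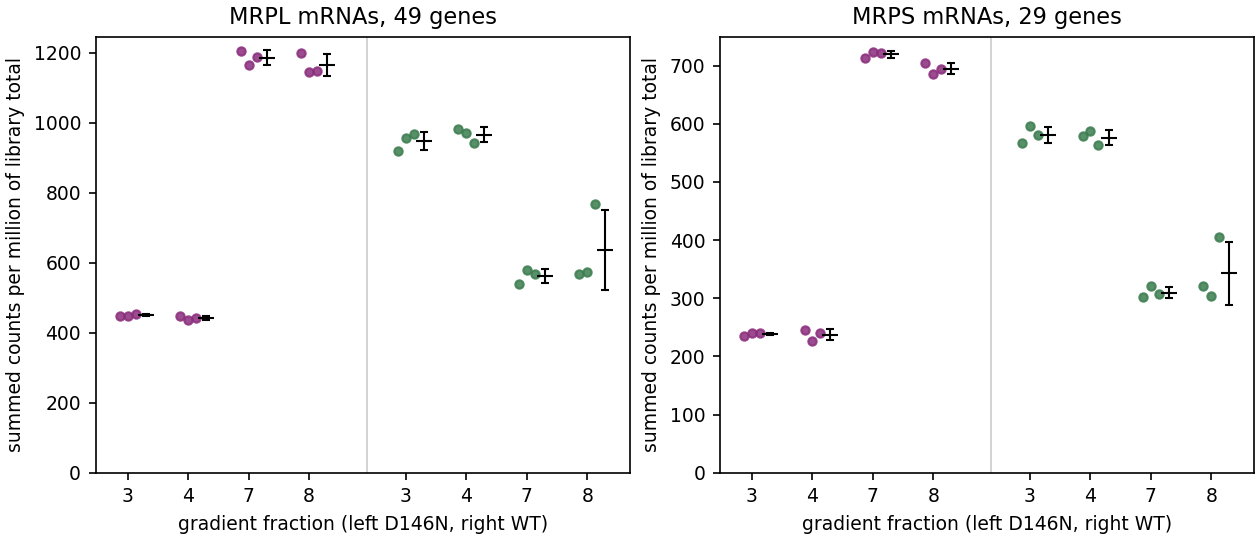
Summed CPM on library totals of the 49 MRPL (left) and 29 MRPS (right) mRNAs in each of the 24 libraries; points are libraries, black bars are the mean and SD of 3, and each panel has D146N on its left and WT on its right by fraction. D146N fractions 7 and 8 and WT fractions 3 and 4 are high, and WT fraction 8 replicate 3 lies above the other WT libraries of fractions 7 and 8.

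Relative to the typical gene the order was the other way round. In D146N, 52 of the 78 members fell in fractions 7 and 8 relative to 3 and 4, 11 rose and 15 were not called, where 30.3% of all genes were called lower and 29.9% higher. The median was -1.07, against 0.10 for all genes, and on library totals 70 members were called higher and 4 lower (88.9% and 4.08% of all genes), with a median of 1.86. In WT, 59 members rose, 13 fell and 6 were not called, where 34.6% of all genes were called higher and 39.3% lower. That median was 1.54, against -0.18 for all genes, and on library totals 13 members were called higher and 57 lower (7.66% and 83.6% of all genes), with a median of -1.14. Without WT fraction 8 replicate 3, 57 rose and 15 fell in WT. The contrast differed between D146N and WT, tested as an interaction, in 70 members, lower in D146N for 56 and higher for 14, where 35.4% of all genes were called lower and 41.7% higher. On library totals 66 were called higher and 9 lower (88.1% and 6.41% of all genes). The 2 genotypes share no library in these contrasts. All 52 members lower in D146N were higher in WT (100% of the D146N list and 88.1% of the WT list), all 11 higher in D146N were lower in WT, and 6 were called in neither. Across the 78 members the WT and D146N contrasts had a Pearson correlation of -0.98 and a Spearman correlation of -0.99, given as a description since the members of a genotype share the same libraries. The opposite calls and correlations are not given here for all genes, so they are not shown to be particular to the members.

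Both subunits followed this pattern, with the MRPL set farther from 0. In D146N the median was -1.34 for MRPL (5 higher, 36 lower and 8 not called of 49) and -0.59 for MRPS (6 higher, 16 lower and 7 not called of 29). In WT it was 1.68 for MRPL (40 higher, 6 lower, 3 not called) and 1.15 for MRPS (19 higher, 7 lower, 3 not called). On library totals the MRPL median was 1.59 in D146N and -0.97 in WT, and the MRPS median was 2.34 in D146N and -1.53 in WT. Members listed as having a bacterial counterpart had a median of -1.16 in D146N and 1.64 in WT (46 members). The remaining members, which include MRPS36, had -0.82 and 1.17 (32 members). The split followed a list of symbol numbers, and protein sequences were not compared, so single members may be misplaced. In WT 36 of the 46 were called higher and 9 lower, and 23 of the 32 were called higher and 4 lower. On library totals this turned in WT to 9 higher and 31 lower of the 46 (median -1.04) and 4 higher and 26 lower of the 32 (median -1.49), and in D146N the medians turned to 1.76 and 2.1.

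**Figure D2:**
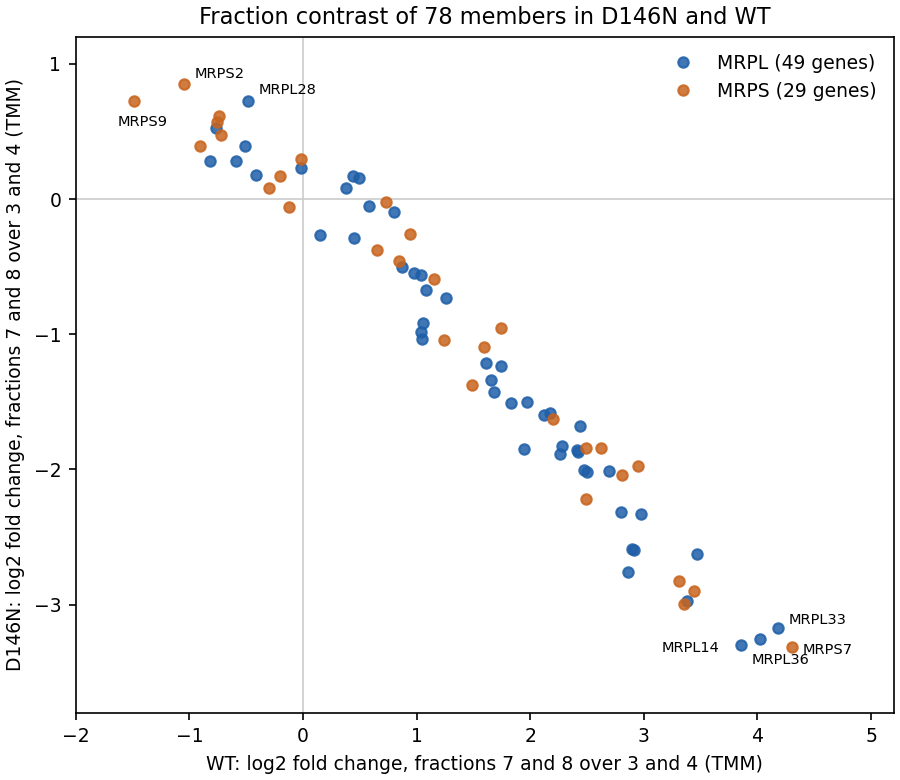
Log2 fold change of fractions 7 and 8 over 3 and 4 after TMM, in WT (horizontal) and D146N (vertical), for the 49 MRPL and 29 MRPS mRNAs; each point is 1 gene. The points run from MRPS9 and MRPS2 at the upper left to MRPS7, MRPL33, MRPL36 and MRPL14 at the lower right.

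The members differed widely among themselves, from -3.32 to 0.85 in D146N and from -1.49 to 4.30 in WT. In WT, 48 of the 59 called higher had at least a 2-fold change, against 2 of the 13 called lower. In D146N, 41 of the 52 called lower and none of the 11 called higher had one. The shares of all genes with a 2-fold change are not given here. Gene span showed a weak relation to the contrast across the 78 members (Spearman 0.27 in D146N and -0.30 in WT).

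At the lower right end stood MRPS7, a protein of the head of the small subunit, whose gene lies at chr17:75261879-75266376 and overlaps GGA3 and MIF4GD. In D146N it had 32.2, 34.6 and 27.98 CPM in fraction 3, 33.9, 29.2 and 33.7 CPM in fraction 4, 25.5, 25.4 and 24.6 CPM in fraction 7 and 24.8, 24.4 and 21.8 CPM in fraction 8. In WT it had 17.7, 19.5 and 19.7 CPM in fraction 3, 21.8, 15.4 and 17.1 CPM in fraction 4, 54.6, 56.3 and 56.5 CPM in fraction 7 and 57.7, 55.8 and 59.0 CPM in fraction 8. All 6 libraries of fractions 7 and 8 were below all 6 of fractions 3 and 4 in D146N and above them in WT. The fold change was -3.32 ± 0.08 (SE, adjusted p = 2.9e-28 by edgeR) in D146N and 4.30 ± 0.09 (adjusted p = 2.77e-31) in WT, and it kept its sign on library totals, at -0.39 and 1.61.

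MRPL33, a short large-subunit protein with a bacterial counterpart, lies at chr2:27771719-27779733 and overlaps no other RefSeq gene. It had 39.8, 41.2 and 41.8 CPM in D146N fraction 3, 39.7, 38.6 and 44.8 CPM in fraction 4, 38.7, 34.6 and 40.0 CPM in fraction 7 and 31.0, 32.3 and 31.1 CPM in fraction 8. In WT it had 26.6, 29.6 and 26.3 CPM in fraction 3, 28.2, 33.5 and 30.8 CPM in fraction 4, 80.5, 85.6 and 83.3 CPM in fraction 7 and 85.8, 88.4 and 62.8 CPM in fraction 8. The WT libraries of fractions 7 and 8 were all above those of 3 and 4, with fraction 8 replicate 3 the lowest, while the D146N fractions overlapped in CPM. The fold change was -3.18 ± 0.12 in D146N (adjusted p = 9.93e-17 by edgeR) and 4.18 ± 0.12 in WT (adjusted p = 4.49e-19).

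MRPL36 and MRPL14 came next to them and also kept their signs on library totals. MRPL36, another short large-subunit protein with a bacterial counterpart, lies at chr5:1798385-1801434 and overlaps NDUFS6. It ran from 13.3 to 15.8 CPM in D146N fractions 7 and 8 against 16.6 to 20.3 CPM in fractions 3 and 4, and from 27.4 to 29.8 CPM in WT fractions 7 and 8 against 10.995 to 12.1 CPM in fractions 3 and 4. Its fold change was -3.26 in D146N and 4.02 in WT, and on library totals -0.33 and 1.33. MRPL14, which lies at the interface of the subunits and whose gene overlaps TMEM63B, had fold changes of -3.30 in D146N and 3.86 in WT, and -0.37 and 1.18 on library totals.

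Other members with large changes belonged to both subunits. MRPS24 (-2.99 in D146N and 3.35 in WT), MRPL11 of the stalk base (-2.97 and 3.38), MRPS33 (-2.90 and 3.44) and MRPL53 (-2.63 and 3.47) fell in D146N and rose in WT after TMM. On library totals MRPS24 and MRPL11 had -0.07 and -0.04 in D146N, MRPL53 turned to 0.30 and MRPS33 had 0.024, which was not called. All 4 of these members stayed positive in WT (0.67, 0.70, 0.75 and 0.77). Whether the D146N values of MRPS24 and MRPL11 were called on library totals is not given here. On that scale 4 of the 78 members were called lower in D146N and 70 higher (4.08% and 88.9% of all genes).

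The opposite end was led by small-subunit members. MRPS9, a small-subunit protein with a bacterial counterpart, whose gene lies at chr2:105038069-105099960, had 1.58, 1.64 and 0.886 CPM in D146N fraction 3, 1.88, 1.13 and 1.40 CPM in fraction 4, 17.6, 17.5 and 19.9 CPM in fraction 7 and 17.8, 17.2 and 17.5 CPM in fraction 8. In WT it had 19.3, 17.7 and 15.6 CPM in fraction 3, 16.1, 17.97 and 16.4 CPM in fraction 4, 0.611, 0.824 and 0.626 CPM in fraction 7 and 1.18, 1.35 and 1.49 CPM in fraction 8. The high libraries were thus D146N fractions 7 and 8 and WT fractions 3 and 4, with no overlap. The fold change was 0.72 ± 0.13 in D146N (adjusted p = 6.42e-06 by edgeR) and -1.49 ± 0.13 in WT (adjusted p = 1.77e-12), and 3.65 and -4.16 on library totals.

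MRPS2, another small-subunit protein with a bacterial counterpart, lies at chr9:135499965-135504673. It ran from 41.7 to 47.6 CPM in D146N fractions 7 and 8 against 2.66 to 3.66 CPM in fractions 3 and 4, and from 1.49 to 4.56 CPM in WT fractions 7 and 8 against 32.3 to 39.5 CPM in fractions 3 and 4. Its fold change was 0.85 ± 0.11 in D146N and -1.05 ± 0.11 in WT. MRPL28 (0.73 in D146N and -0.49 in WT), MRPS5 (0.61 and -0.74), MRPS18B (0.57 and -0.76), MRPL49 (0.53 and -0.76), MRPS30 (0.39 and -0.90) and MRPL19 (0.28 and -0.82) rose in D146N and fell in WT in the same way. All of them kept these signs on library totals.

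**Figure D3:**
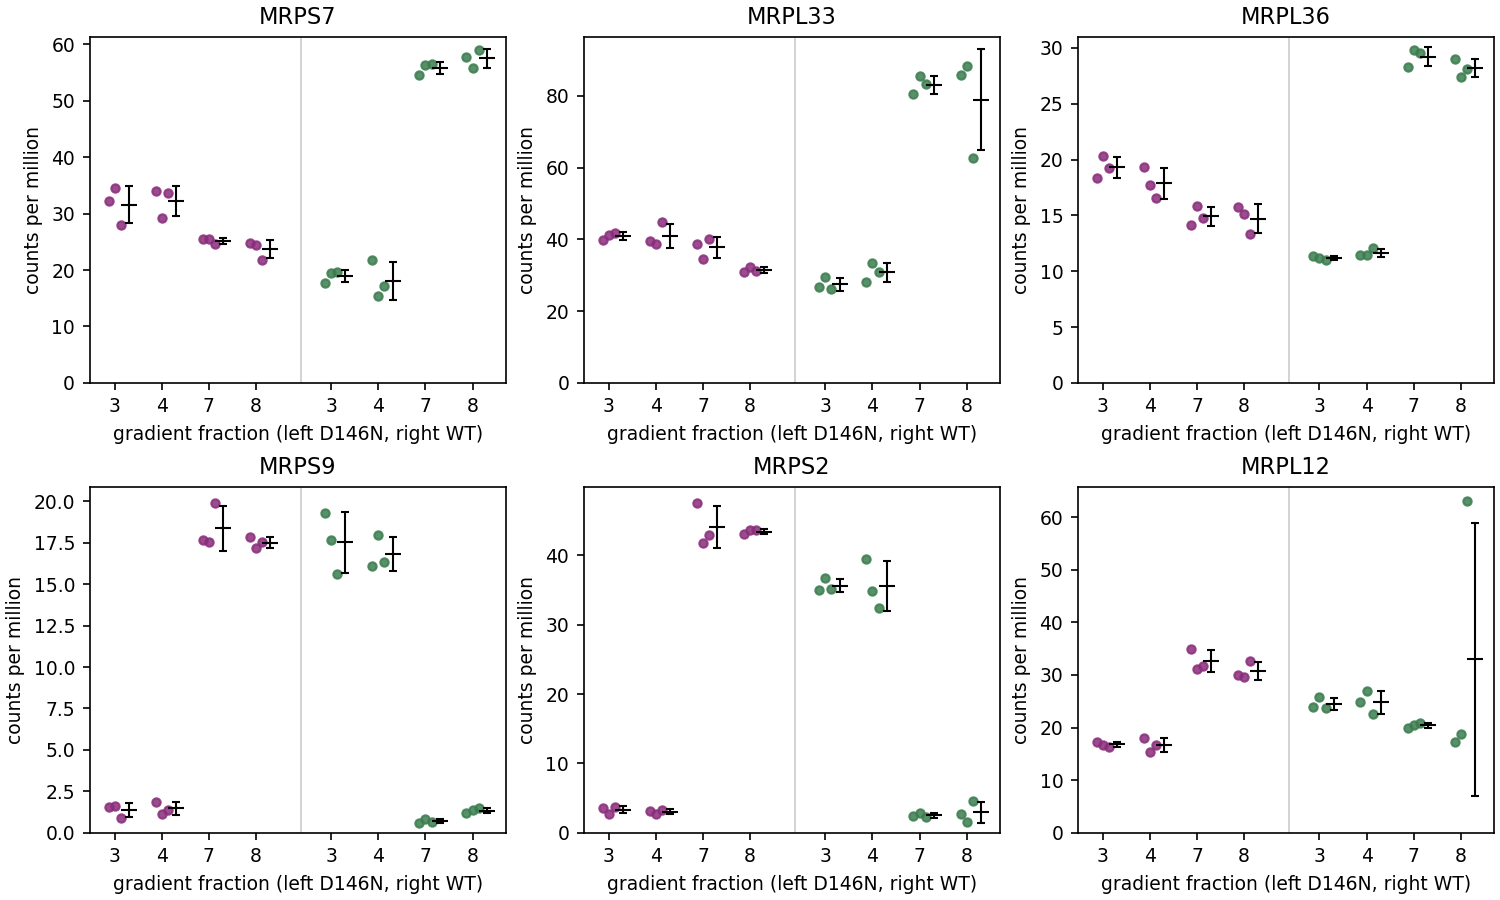
CPM of 6 members in each library by fraction, D146N (left of each panel) and WT (right); points are libraries and black bars the mean and SD of 3. MRPS7, MRPL33 and MRPL36 peak in WT fractions 7 and 8, MRPS9 and MRPS2 in D146N fractions 7 and 8 and WT fractions 3 and 4, and MRPL12 has 63.0 CPM in WT fraction 8 replicate 3 against 17.3 and 18.7 CPM in replicates 1 and 2.

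The 3 MRPS18 paralogs were spread along this range. MRPS18C, a small-subunit paralog, had -1.98 in D146N and 2.95 in WT. MRPS18A, whose protein lies in the large subunit despite its name, had -0.26 in D146N, which was not called (adjusted p = 0.312 by edgeR), and 0.94 in WT (adjusted p = 2.65e-04). MRPS18B had 0.57 and -0.76. On library totals MRPS18C turned to 0.95 in D146N and stayed at 0.25 in WT, and MRPS18A turned to 2.66 in D146N and -1.69 in WT. The genes of MRPS18A and MRPS18C overlap RSPH9 and ABRAXAS1.

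Members with a second role or a known position lay at different places in the range. MRPL12, the stalk protein that is also reported to bind mitochondrial RNA polymerase, had -2.01 in D146N and 2.70 in WT, with 1 WT library (fraction 8 replicate 3) at 63.0 CPM against 17.3 to 20.9 CPM in the other 5 of fractions 7 and 8. MRPL10, which anchors the stalk, had 0.18 in D146N (adjusted p = 0.149 by edgeR) and -0.41 in WT (adjusted p = 7.71e-04). In D146N it passed the threshold in 12 of the 24 fits that left out 1 library, at up to 0.37. Some of those fits left out a WT library, such as fraction 3 replicate 1 (0.33), which is not in the D146N contrast. MRPL58, a peptidyl-tRNA hydrolase built into the large subunit, had -1.85 and 1.95, and MRPS36, named KGD4 in RefSeq and a subunit of the oxoglutarate dehydrogenase complex, had -2.82 and 3.31. On library totals MRPL58 turned to 1.08 in D146N and -0.72 in WT, MRPL12 turned to 0.91 in D146N, and MRPS36 had 0.10 there, which was not called.

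Averaged over all 24 libraries, the members with the most counts were MRPL37, MRPL51, MRPL33, MRPL3 and MRPS21, an order that also depends on transcript length and is no ranking of transcript numbers. MRPS21 at 34.82 CPM was level with the next member, MRPL42, at 34.81 CPM. The order differed between the ends, since MRPL37 led in D146N fractions 7 and 8 and WT fractions 3 and 4 (means of 110.2 and 94.3 CPM), and MRPL33 led in D146N fractions 3 and 4 and WT fractions 7 and 8 (means of 40.98 and 81.1 CPM). MRPL37, a mitochondria-specific protein, ran from 106 to 117 CPM in D146N fractions 7 and 8 against 10.03 to 12.3 CPM in fractions 3 and 4, and from 7.72 to 23.5 CPM in WT fractions 7 and 8 against 88.6 to 102 CPM in fractions 3 and 4. Its 23.5 CPM was in WT fraction 8 replicate 3, and the next highest of those 6 libraries had 9.36 CPM. The fold change was 0.39 in D146N and -0.51 in WT. MRPL3, near the peptidyl transferase centre, had 0.28 and -0.59. MRPL51 (-1.87 in D146N and 2.42 in WT) and MRPS21 (-2.04 and 2.81) went the other way after TMM, and on library totals MRPL51 turned to 1.05 and -0.27, and MRPS21 turned to 0.89 in D146N.

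The ratio of summed MRPL to summed MRPS counts within a library does not depend on the scaling. It was 1.61 to 1.70 in D146N fractions 7 and 8 against 1.82 to 1.93 in fractions 3 and 4, and 1.76 to 1.90 in WT fractions 7 and 8 against 1.60 to 1.70 in fractions 3 and 4. The ends did not overlap in either genotype. The mean ratios by fraction were 1.89 ± 0.02, 1.86 ± 0.06, 1.65 ± 0.04 and 1.68 ± 0.03 in D146N fractions 3, 4, 7 and 8, and 1.63 ± 0.03, 1.67 ± 0.02, 1.81 ± 0.04 and 1.85 ± 0.07 in the same WT fractions (SD, n = 3 each). As a ratio of sums it is weighted towards the members with the most counts.

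The size of this difference depended on which genes were counted. MRPS30 and MRPS18A encode proteins found in the large subunit of the human mitochondrial ribosome, and moving them to the MRPL sum gave 1.75 to 1.86 in D146N fractions 7 and 8 against 1.87 to 1.995 in fractions 3 and 4. In WT it gave 1.79 to 1.96 in fractions 7 and 8 against 1.76 to 1.85 in fractions 3 and 4, ranges that overlap. Without the 32 members that overlap another RefSeq gene, 29 MRPL and 17 MRPS remained. The ratio was then 1.49 to 1.57 in D146N fractions 7 and 8 against 2.15 to 2.32 in fractions 3 and 4, and 2.20 to 2.55 in WT fractions 7 and 8 against 1.44 to 1.56 in fractions 3 and 4.

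**Figure D4:**
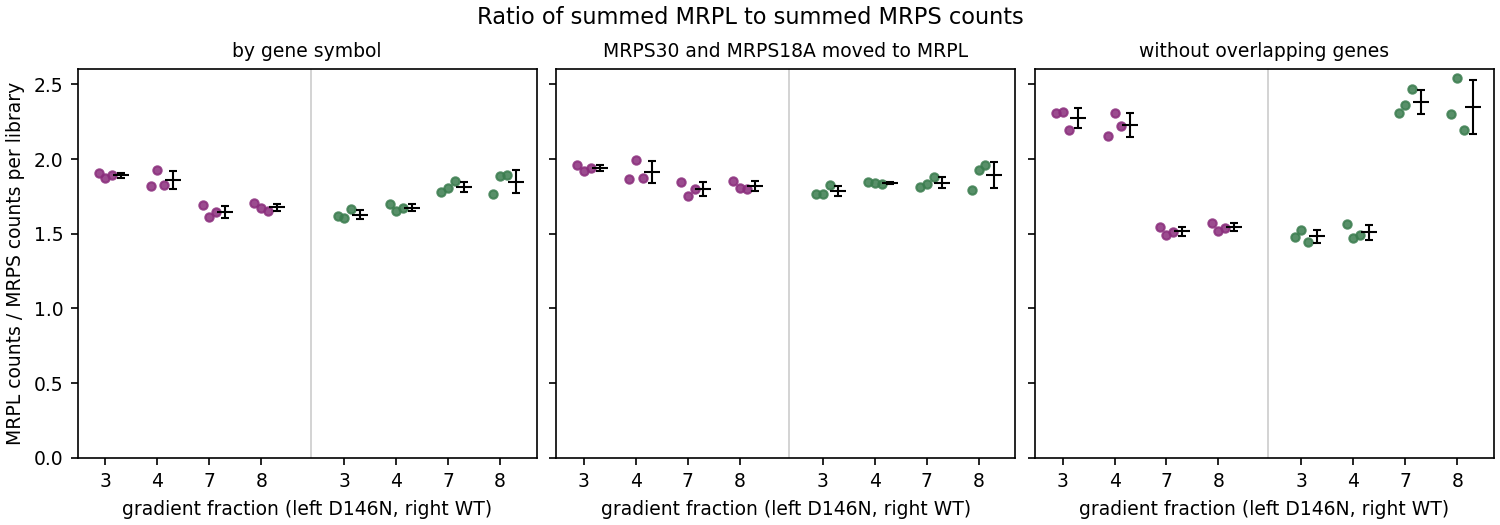
Ratio of summed MRPL to summed MRPS counts in each library by fraction, D146N left and WT right in each panel, for all members by symbol, with MRPS30 and MRPS18A counted as MRPL, and without members that overlap another gene; points are libraries and black bars the mean and SD of 3. The ends separate in the left and right panels, and in the middle panel the WT ends overlap.

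No difference between neighbouring fractions of 1 genotype was called for these mRNAs. For fraction 4 against 3 and fraction 8 against 7, edgeR called 0 of 78 members in either genotype, as it called 0% of all genes. At an unadjusted p under 0.05 there were 1 member for 4 against 3 and 1 for 8 against 7 in D146N, and 2 and 17 in WT. DESeq2 also called 0, with 1 and 2 members in D146N and 2 and 17 in WT at an unadjusted p under 0.05. Without WT fraction 8 replicate 3 the WT count for 8 against 7 at that unadjusted p was 2 by edgeR. Members were called for WT fraction 8 against 7 without replicate 1 of fraction 8 (3 higher and 1 lower), without its replicate 2 (7 higher and 1 lower) and without the filter on low counts (4 higher), settings that all keep replicate 3. The shares of all genes under these settings and at the unadjusted p are not given here. These counts are therefore not shown to be particular to the members.

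D146N was compared with WT within each fraction, where the effect of the mutant and any difference in how fractions were numbered or collected cannot be told apart. In fraction 3, 51 members rose in D146N, 8 fell and 19 were not called, where 25.8% of all genes were called higher and 23.9% lower. The median was 1.19 (1.62 for MRPL and 0.97 for MRPS), and on library totals it turned to -1.59, with 8 members higher and 62 lower (3.91% and 84.7% of all genes). In fraction 4, 51 rose and 7 fell (25.7% and 22.8% of all genes), with a median of 1.18 after TMM and -1.60 on library totals (7 higher and 62 lower, against 3.78% and 84.3% of all genes). MRPL36 (3.56) and MRPS7 (3.52) were highest in fraction 3, and MRPS7 (3.61) and MRPL14 (3.42) in fraction 4. MRPS9 (-0.90 and -0.72) and MRPS2 (-0.64 and -0.76) were lowest in both. These 5 members kept their signs on library totals.

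In fractions 7 and 8 the order was opposite. In fraction 7, 13 members rose and 52 fell in D146N, where 32.4% of all genes were called higher and 31.1% lower, with a median of -1.39 after TMM and 1.55 on library totals (63 higher and 7 lower, against 83.6% and 5.41% of all genes). In fraction 8, 13 rose and 59 fell (32.5% and 32.6% of all genes), with a median of -1.28 after TMM and 1.42 on library totals (62 higher and 9 lower, against 80.9% and 6.08% of all genes). Without WT fraction 8 replicate 3, 16 rose and 53 fell there. MRPS7 (-4.10 and -4.01) and MRPL33 (-4.08 and -4.09) were lowest in both, and these signs held on library totals. MRPS9 (1.80) and MRPS18B (1.37) were highest in fraction 7, and MRPS2 (1.22) and MRPS9 (1.01) in fraction 8. Without WT fraction 8 replicate 3, MRPS2 (1.49) was followed in fraction 8 by MRPL28 (1.26) and MRPS18B (1.23), and MRPS9 had 0.93.

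Fewer members were called when opposite ends of the gradients were compared. Between D146N fractions 7 and 8 and WT fractions 3 and 4, 20 members were called higher in D146N, 0 lower and 58 were not called, where 6.9% of all genes were called higher and 10.4% lower. They were 12 of 49 MRPL and 8 of 29 MRPS, the median was 0.16, and the range over the 78 was -0.20 to 0.44. On library totals 38 were called higher and 0 lower (16.9% and 5.29% of all genes). At an unadjusted p under 0.05 there were 30 members. Without WT fraction 8 replicate 3, 30 were called higher. That library is not among those compared but enters the shared estimate of spread and the scaling. The shares of all genes for these counts are not given here.

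Between D146N fractions 3 and 4 and WT fractions 7 and 8, 9 members were called higher in D146N and 30 lower, where 17.1% of all genes were called higher and 12.1% lower. The median was -0.22 and the range -0.91 to 0.68. Higher calls numbered 2 on library totals, where 12% of all genes were called higher, 5 with median-of-ratios size factors and 2 with DESeq2. The lower calls included 20 of 49 MRPL and 10 of 29 MRPS, and the higher calls 4 and 5. Without D146N fraction 3 replicate 1 the lower MRPL calls numbered 13, and without D146N fraction 4 replicate 3 the higher MRPS calls numbered 3. MRPL33 was the lowest, at -0.91 ± 0.11 (adjusted p = 1.01e-06 by edgeR), followed by MRPS7 at -0.74 ± 0.08 (adjusted p = 1.86e-09). MRPL33 had 38.6 to 44.8 CPM in D146N fractions 3 and 4 against 62.8 to 88.4 CPM in WT fractions 7 and 8.

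Adding the 4 fractions of each set kept the numbering of fractions out of the comparison, but each fraction still counted by its sequencing depth. The counts of the 4 libraries with 1 genotype and replicate number were summed, giving 3 D146N and 3 WT sums, since the design text speaks of replicate sets of fractions, although it does not say that a number marks 1 gradient. Of the 78 members, 14 rose in D146N, 13 fell and 51 were not called, where 14.9% of all 20562 genes tested were called higher and 12.5% lower. MRPL had 8 higher and 6 lower with a median of 0.03, and MRPS had 6 higher and 7 lower with a median of 0.06. The higher calls depended on single sets. They numbered 7 without WT set 1 (3 of them MRPL), 8 without D146N set 1 (4 MRPL) and 9 without D146N set 3 (5 MRPL), MRPL also had 5 without WT set 2, and DESeq2 called 7 higher (3 MRPL). Deeper fractions weigh more in these sums, and WT fractions 7 and 8 had 30.4 to 32.99 M counts against 21.2 to 27.01 M counts in WT fractions 3 and 4. In D146N the depths went the other way, with 21.2 to 22.9 M counts in fractions 7 and 8 against 23.8 to 28.1 M counts in fractions 3 and 4. The sums are therefore no measure of the total level in the cells.

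MRPL33 had the lowest fold change in the sums, at -0.73 ± 0.08 (adjusted p = 5.54e-04 by edgeR), with a mean of 38.0 ± 1.46 CPM in D146N and 58.7 ± 5.15 CPM in WT (SD, n = 3 each). MRPS7 followed at -0.60 ± 0.04 (adjusted p = 3.18e-08), with 28.5 ± 1.10 CPM in D146N and 40.3 ± 0.42 CPM in WT. MRPS18B (0.47 ± 0.07, adjusted p = 8.43e-05) and MRPL28 (0.46 ± 0.07, adjusted p = 1.18e-04) were highest. The D146N and WT sums of MRPL33 and of MRPS7 did not overlap. All 13 members that fell in the sums were higher in WT fractions 7 and 8 than in 3 and 4, and of the 14 that rose, 8 were lower and 5 higher there. Most members were called higher in that WT contrast. The sums hold the same WT libraries, so these counts are not independent of it.

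The split changed with the weight of the fractions. With each library scaled to the lowest total before summing, 14 members were called higher and 7 lower. When the 4 within-fraction contrasts were averaged, 7 were called higher and 11 lower, MRPL28 lost its call (0.28, adjusted p = 0.081 by edgeR), and on library totals 25 higher and 6 lower (23% and 7.76% of all genes). Of the 13 lower calls, 7, 8 and 6 were also called lower under these settings, in that order. Both weightings were chosen after the data had been seen, and the shares of all genes called under them are not given here.

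**Figure D5:**
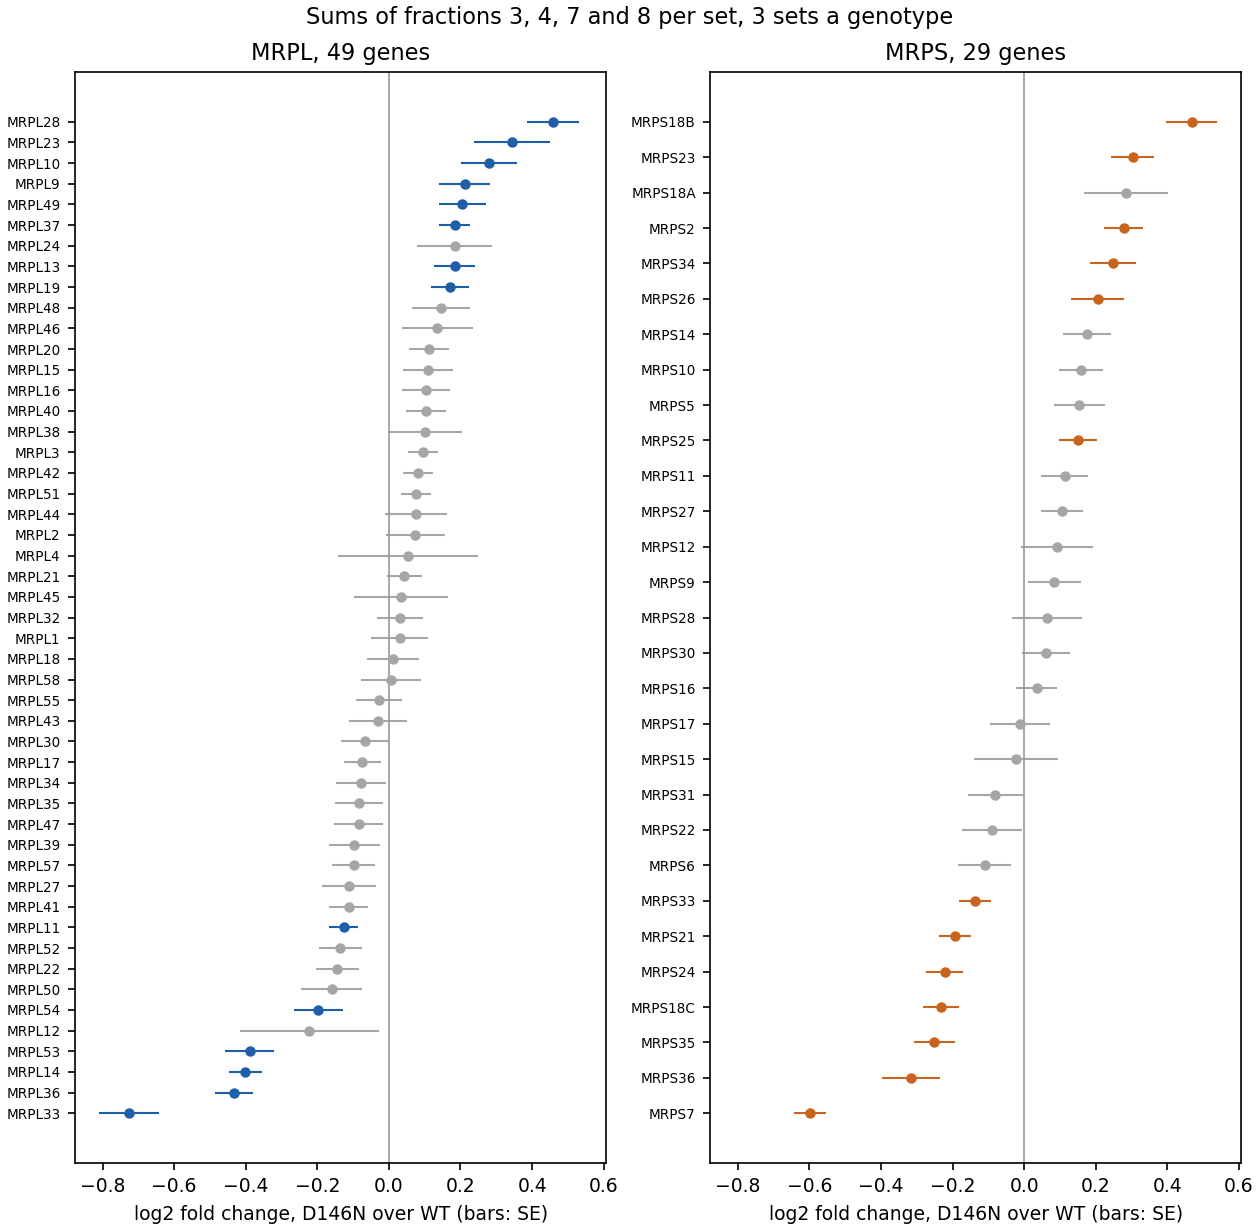
Log2 fold change of D146N over WT in the sums of the 4 fractions, for each MRPL (left) and MRPS (right) member, with SE bars; coloured points were called at an adjusted p under 0.05 and grey points were not. MRPL33 at -0.73 and MRPS7 at -0.60 lie lowest and MRPS18B at 0.47 and MRPL28 at 0.46 highest.

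Other subunits of the same ribosome that carry a different kind of name fell within the members' range. AURKAIP1 (-2.19 in D146N and 2.58 in WT), CHCHD1 (-0.77 and 1.39), GADD45GIP1 (-0.60 and 0.56) and PTCD3 (-0.36 and 0.42) fell in D146N and rose in WT, and DAP3, the GTP-binding small-subunit protein, rose in D146N (0.21) and fell in WT (-0.45). The call of PTCD3 in D146N was lost in 3 of the 24 fits that left out 1 library, at -0.18 to -0.19. On library totals the signs of AURKAIP1, CHCHD1, GADD45GIP1 and PTCD3 turned, to 0.74, 2.16, 2.32 and 2.57 in D146N and -0.082, -1.29, -2.10 and -2.27 in WT, where the value of AURKAIP1 was not called.

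For the 2 ribosomal RNAs the scaling and 1 library decided several calls. MT-RNR1 was not called in D146N (2.02 ± 1.39, adjusted p = 0.225 by edgeR) or WT (0.59 ± 0.94, adjusted p = 0.584). MT-RNR2 rose in D146N (2.92 ± 1.002, adjusted p = 0.0187) and was not called in WT (-1.20 ± 0.75, adjusted p = 0.157). On library totals both were called higher in D146N (4.94 for MT-RNR1, adjusted p = 0.00221 by edgeR, and 5.84 for MT-RNR2, adjusted p = 4.36e-05). In WT, MT-RNR2 was then called lower at -3.76 (adjusted p = 4.9e-04) and MT-RNR1 turned to -1.93 (adjusted p = 0.0793). MT-RNR1 had 0.191 and 0.243 CPM in WT fraction 8 replicates 1 and 2 and 278 CPM in replicate 3. Without that replicate MT-RNR1 turned to -3.54 in WT (adjusted p = 0.00115 by edgeR) and was called in D146N (2.05, adjusted p = 0.0338), and MT-RNR2 was called in WT at -4.18 (adjusted p = 9.14e-05). The libraries had been depleted of ribosomal RNA.

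Genes that assemble and serve the mitochondrial ribosome were called in both directions after TMM and in 1 direction per genotype on library totals. The shares of all genes called after TMM were 29.9% higher and 30.3% lower in D146N and 34.6% higher and 39.3% lower in WT. On library totals all 28 assembly and modification genes, 15 translation factors, 20 tRNA charging genes and 5 transcription genes were called higher in D146N, and 26, 15, 20 and 5 of them lower in WT, where 88.9% of all genes were called higher in D146N and 83.6% lower in WT. After TMM in D146N, 9 of 28 assembly and ribosomal RNA modification genes were called higher and 6 lower (median 0.17), and in WT 7 higher and 12 lower (median -0.18). MALSU1, an assembly factor of the large subunit, had -1.95 in D146N and 2.49 in WT, and YBEY, a ribosomal RNA processing enzyme, had -2.03 and 2.51. Of 15 translation factors, 7 were called higher and 4 lower in D146N and 4 higher and 8 lower in WT, among them TUFM, the elongation factor Tu (1.05 and -1.62), and MTRF1, a release factor (-1.69 and 1.94). On library totals the signs of MALSU1, YBEY, MTRF1, NARS2, FARS2 and TFB2M turned in both genotypes, although the WT values of MALSU1 and YBEY (-0.19 and -0.17) were not called. Of 20 genes for charging mitochondrial tRNAs, 8 were called higher and 3 lower in D146N and 5 higher and 13 lower in WT, with NARS2 at -1.21 and 1.71 and FARS2 at -1.71 and 2.04. Of 5 transcription genes, 1 was called higher and 2 lower in D146N and 2 each way in WT, with the polymerase POLRMT at 1.26 and -1.24 and TFB2M at -0.55 and 1.35. The call of TFB2M in D146N was lost in 9 of the 24 fits that left out 1 library, with an adjusted p of up to 0.118. Some of those fits left out a WT library, such as fraction 3 replicate 1 (-0.39), which is not in the D146N contrast.

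Side by side with these, the 85 tested cytosolic ribosomal protein mRNAs had a median of -3.89 in D146N (3 higher and 82 lower) and 4.01 in WT (81 higher and 3 lower), and the 37 nuclear complex I mRNAs -1.68 (4 and 33) and 2.51 (33 and 4), after TMM. Scaled by library totals, the cytosolic ribosomal protein mRNAs kept these directions, with medians of -0.96 in D146N (8 higher and 72 lower) and 1.31 in WT (77 and 5), and complex I turned, to 1.25 in D146N (35 and 1) and -0.14 in WT (8 and 17). Of all genes, 29.9% were called higher and 30.3% lower in D146N and 34.6% higher and 39.3% lower in WT after TMM. On library totals these shares were 88.9% and 4.08% in D146N and 7.66% and 83.6% in WT. In the sums the cytosolic ribosomal protein mRNAs had 1 higher and 67 lower with a median of -0.40, and complex I 5 higher and 11 lower with a median of -0.03, where 14.9% of all genes were called higher and 12.5% lower. On library totals the sums had 4 higher and 57 lower cytosolic ribosomal protein mRNAs and 8 higher and 6 lower complex I mRNAs. There 23% of all genes were called higher and 7.76% lower.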

How the data were processed

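Ribosomal RNA depleted RNA-seq of 24 libraries was analysed. The deposited table holds expected counts per gene, not normalized by the authors. Per the submitters' processing notes, the tools were featureCounts 1.5.1, HISAT2 2.1.0, Bowtie2 2.3.5 and SAMtools and the build hg38, with the role of each not given in the sources used here. Within 0.005, 73.3% of nonzero values were whole, and all were rounded to whole numbers for fitting, although whole counts had been assumed when the tests were set.

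Groups followed the sample titles. Fits used edgeR 4.0.16 in R 4.3.3 (TMM, filterByExpr, robust quasi-likelihood fit of 8 group means, limma 3.58.1), with 3 libraries a group and a biological coefficient of variation of 13.8%. Fraction contrasts are means of log2 group means. Where 1 library was left out, the filter, the TMM scaling and one shared estimate of the spread were taken anew from the others. Values in groups without that library could therefore move too. The smallest value of any member in a library was 10.5 counts, so depth limits the low members. Tested on simulated data for D146N against WT in fraction 3 (17315 genes), the fit recovered 25.4% of genes changed 1.5-fold, 92.5% at 2-fold and 100% at 4-fold. In that simulation all other genes had the same mean in every group, unlike in these libraries. It therefore says nothing on the effect of the scaling. DESeq2 was an alternative. The members and gene lists were chosen with earlier results of these data known. Named members were those with at least 5 CPM on average and the 6 highest or lowest changes in each fraction contrast (2 each way in the other contrasts), the 5 with the most counts and 8 chosen for role. The rule also asked for the shortest and longest protein, which was not done because no protein sequences were used here. Of each related list, the 2 genes with the smallest p in WT were named. Symbols were matched for 99.8% of rows. Of the 78 members, 36 have pseudogene rows (79 in all) that could take some of their reads, and whether counting used strand is not given in the sources used here, so reads of overlapping genes may be shared.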

Additional observations from a re-analysis of the deposited data

Results flagged for a closer look

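The contrast of fractions 7 and 8 over 3 and 4 differed between D146N and WT, tested as the interaction (D146N minus WT) by edgeR, in 70 of the 78 members. It was lower in D146N for 56 and higher for 14, where 35.4% of all genes were called lower and 41.7% higher. The median was -2.69 for all members, -2.99 for MRPL and -1.74 for MRPS. On library totals 66 were called higher and 9 lower, where 88.1% of all genes were called higher and 6.41% lower. Among the named members, the difference was lower in D146N for MRPS7 (-7.62), MRPL33 (-7.36), MRPL36 (-7.27), MRPL14 (-7.16), MRPL11 (-6.35), MRPS24 (-6.34), MRPS33 (-6.34), MRPS36 (-6.13), MRPL53 (-6.1), MRPS18C (-4.92), MRPS21 (-4.85), MRPL12 (-4.71), MRPL51 (-4.29), MRPL58 (-3.8) and MRPS18A (-1.2).

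It was higher in D146N for MRPS9 (2.21), MRPS2 (1.89), MRPS5 (1.35), MRPS18B (1.33), MRPS30 (1.3), MRPL49 (1.29), MRPL28 (1.21), MRPL19 (1.1), MRPL37 (0.91), MRPL3 (0.88) and MRPL10 (0.59).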

How the results depend on the processing

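Settings were scaling by library totals or median-of-ratios size factors, no filter on low counts, DESeq2, small and mitochondrial RNA rows left out, a replicate block and each library left out in turn. On library totals the members called in the fraction contrast were 70 higher and 4 lower in D146N (88.9% and 4.08% of all genes). In WT they were 13 higher and 57 lower (7.66% and 83.6% of all genes). D146N against WT gave 8 higher and 62 lower in fraction 3 (3.91% and 84.7% of all genes) and 7 and 62 in fraction 4 (3.78% and 84.3%). It gave 63 and 7 in fraction 7 (83.6% and 5.41%) and 62 and 9 in fraction 8 (80.9% and 6.08%). The interaction gave 66 and 9 (88.1% and 6.41%). Still on library totals, 38 were called higher for D146N 7 and 8 against WT 3 and 4 (16.9% of all genes). The sums had 25 higher and 6 lower (23% and 7.76%). For D146N 3 and 4 against WT 7 and 8, 2 were called higher (12% of all genes), against 5 with median-of-ratios size factors and 2 with DESeq2. In the sums DESeq2 called 7 higher, the mean of the within-fraction contrasts 7 higher and equal weighting 7 lower. Median fold changes turned on library totals for all members, MRPL and MRPS, to 1.86, 1.59 and 2.34 in D146N and -1.14, -0.97 and -1.53 in WT. Between genotypes they turned to -1.59, -1.16 and -1.80 in fraction 3, -1.60, -1.27 and -1.95 in fraction 4, 1.55, 1.49 and 2.06 in fraction 7 and 1.42, 1.14 and 1.61 in fraction 8. After TMM the medians also moved when 1 library was left out. The MRPL median then ran from -1.36 to -1.14 in D146N and from 1.51 to 1.725 in WT. The MRPS median in D146N ran from -0.60 to -0.41.

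Named fold changes turned on library totals in D146N for MRPL12 (0.91), MRPL51 (1.05), MRPL53 (0.30), MRPL58 (1.08), MRPS18A (2.66), MRPS18C (0.95), MRPS21 (0.89), MRPS33 (0.024), MRPS36 (0.10), PTCD3 (2.57), CHCHD1 (2.16), AURKAIP1 (0.74), GADD45GIP1 (2.32), MALSU1 (0.98), YBEY (0.90), MTRF1 (1.24), NARS2 (1.72), FARS2 (1.22) and TFB2M (2.38). In WT they turned for MRPL51 (-0.27), MRPL58 (-0.72), MRPS18A (-1.69), PTCD3 (-2.27), CHCHD1 (-1.29), AURKAIP1 (-0.082), GADD45GIP1 (-2.10), MT-RNR1 (-1.93), MALSU1 (-0.19), YBEY (-0.17), MTRF1 (-0.73), NARS2 (-0.98), FARS2 (-0.62) and TFB2M (-1.34). MRPS33 and MRPS36 in D146N and AURKAIP1, MALSU1, YBEY and MT-RNR1 in WT were not called there. Relative to the median of all genes on the same scale, the median of the members kept its sign on library totals in these contrasts. The cause was not tested.

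The mean MRPL to MRPS ratio is given for fractions 3 and 4, then for fractions 7 and 8. By symbol it was 1.875 and 1.66 in D146N and 1.65 and 1.83 in WT. With MRPS30 and MRPS18A moved it was 1.93 and 1.81 in D146N and 1.81 and 1.87 in WT. Without overlapping genes it was 2.25 and 1.53 in D146N and 1.496 and 2.36 in WT. Without a filter 4 members were called higher for WT fraction 8 against 7. Leaving out 1 library gave 0 to 7 higher and 0 to 1 lower there, and leaving out 1 set gave 7 to 15 higher in the sums. The shares of all genes called under these settings are not given here. MT-RNR1 in WT ran from -3.54 (without fraction 8 replicate 3) to 0.86. Leaving out small and mitochondrial RNA rows changed no named call or count of members by over 1.5 times.

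Libraries with the same replicate number did not deviate together (correlations of -0.06 to 0.04), so the numbers were not taken as pairs in the main fits. The sums still grouped libraries by that number, so their sets may not be single gradients. With a replicate block no call of a named gene changed, and in the sums 13 of the 14 higher and 12 of the 13 lower calls remained.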
